A study of Mus musculus with 15 samples.

Results

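Ankrd1, Abra, Xirp1, Hspb1, Hspb7, Ctgf, Cyr61 and Amotl2 are 8 mouse genes linked in other work to mechanical stretch and to transcription by YAP with TEAD and by MRTF with SRF. They were taken by name from the 23154 genes listed for every library, and all 8 passed the filter on low values that left 10665 genes for testing. RNA was counted in single cells picked from embryonic mouse hearts at 4 embryonic stages between E7.75 and E9.25. The Isl1Cre libraries came from embryos with Isl1Cre and the Rosa26tdTomato reporter, with 2 libraries each at E7.75, E8.25 and E8.75 and 1 library at E9.25. The Nkx2-5Cre libraries came from embryos with Nkx2-5Cre and the same reporter, with 2 libraries at each of the 4 stages. The reporter marks cells in which the Cre has acted and their descendants, so both lineages can hold the same cell types. The 2 libraries of a group carry the same embryo number in their titles, so the p-values below measure how far such libraries lie apart, a spread that may be technical, and single embryos cannot be told apart from the groups.

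Of 1400 cells, 1332 were kept, 594 of Isl1Cre and 738 of Nkx2-5Cre, and no cell name was shared between libraries. The recovered total per library lay between 8165519 and 38321215 counts. Nkx2-5Cre E7.75 replicate 1 was the deepest, with a median of 360929 counts per cell, against 92068 to 203581 in the other libraries. The summed level of 15 cardiomyocyte markers was 7293 and 8310 CPM in Isl1Cre and 17040 and 15590 CPM in Nkx2-5Cre at E7.75, and 26890 to 59720 CPM in all later libraries. Markers of blood cells summed to 1408 and 1176 CPM in the Nkx2-5Cre E8.75 libraries and to 219 CPM or less elsewhere; their part in the results was not tested.

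YAP and its relative TAZ are coactivators that enter the nucleus when Hippo kinase signalling is low or when cells are stretched or spread, and there bind TEAD factors on DNA. SRF is driven by the actin state of the cell through the MRTF coactivators and by its heart and smooth muscle partner myocardin. In the heart tube, which starts to contract at about the stages sampled, genes under either system include structural and signalling proteins of the sarcomere and of cell contacts. Ankrd1 encodes an ankyrin repeat protein that binds titin in the sarcomere and is a known target of YAP. Abra encodes an actin-binding protein of muscle that promotes MRTF and SRF activity, and Xirp1 encodes an actin-binding protein of muscle attachment sites and intercalated discs. Hspb1 and Hspb7 encode small heat shock proteins, of which Hspb7 is largely restricted to heart and skeletal muscle. Ctgf and Cyr61, now named Ccn2 and Ccn1, encode secreted matrix-associated proteins that respond quickly to YAP, and Amotl2 encodes an angiomotin family protein that is a YAP target and binds YAP in return.

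The sequence upstream of a start site was searched on both strands for the TEAD element GGAATG, for the SRF CArG box and for the core heat shock element GAANNTTC, in the 250 bases before and 50 after each RefSeq start (GRCm38.p6). Among 32851 promoters of that length, 14.66% held the TEAD element, 1.629% the CArG box and 7.86% the heat shock element. Entries were matched for 5 of the 8 genes, Ankrd1, Cyr61, Amotl2, Hspb1 and Hspb7, and each of these 5 held at least 1 TEAD element, while no CArG box was found in these windows. In Hspb7 the element lay at 4 to 9 after the start. A match describes these letters and is no evidence of binding. The upstream stretches of Hspb1 and Cyr61 are shown because both hold the element, while Hspb1 had the steepest rise with stage and Cyr61 did not pass the test; capitals mark matches. Hspb1, at chr5:135887669-135887918 on the plus strand, holds heat shock elements at -117 to -110 and -97 to -90 from the start and a TEAD element at -49 to -44. Cyr61, at chr3:145649986-145650235 on the minus strand, holds a TEAD element in reverse at -103 to -98.
Hspb1: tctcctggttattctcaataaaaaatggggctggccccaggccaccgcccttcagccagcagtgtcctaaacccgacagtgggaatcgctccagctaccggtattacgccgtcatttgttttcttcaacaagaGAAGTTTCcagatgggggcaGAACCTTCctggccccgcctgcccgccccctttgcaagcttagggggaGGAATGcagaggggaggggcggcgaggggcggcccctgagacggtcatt
Cyr61: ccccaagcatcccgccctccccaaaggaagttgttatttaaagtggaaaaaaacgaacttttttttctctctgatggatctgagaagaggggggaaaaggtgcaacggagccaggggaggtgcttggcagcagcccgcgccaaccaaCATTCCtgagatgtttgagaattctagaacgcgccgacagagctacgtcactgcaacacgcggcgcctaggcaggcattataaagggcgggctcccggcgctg

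For Ankrd1 and Amotl2 the window overlaps the first exon of 1 and of 2 annotated transcripts, so only the 30 bases around each TEAD element, in capitals, are shown. The Ankrd1 elements lie at -210 to -205 and -123 to -118 from the start, at chr19:36120037-36120066 and chr19:36119950-36119979 on the minus strand. The second of them shares 1 base with a heat shock element. The Amotl2 element lies at -65 to -60, in reverse, at chr9:102717727-102717756 on the plus strand.
Ankrd1, far element: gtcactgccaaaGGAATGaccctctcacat
Ankrd1, near element: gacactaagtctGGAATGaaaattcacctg
Amotl2: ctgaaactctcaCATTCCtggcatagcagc

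The 5 genes with muscle roles, Ankrd1, Abra, Xirp1, Hspb1 and Hspb7, rose in both lineages by a linear change per day. Of the other 3 genes, Amotl2 fell in both and Ctgf and Cyr61 did not pass the test in either. Ankrd1 is, like these 3, a known YAP target, so the grouping does not set YAP targets apart. The rise did not go on at every stage. In Nkx2-5Cre, E9.25 means lay below E8.25 means for Ankrd1 (1554 and 1737 CPM), Hspb7 (68.0 and 80.9) and Xirp1 (41.7 and 46.6). Abra in Isl1Cre had 41.2 CPM at E8.25 and 26.0 in the 1 library of E9.25. Each level is the mean CPM of a library, taken over its kept cells. Such a mean cannot tell fewer cells of a type from less RNA per cell; the levels within classes of cells are given further on.

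Ankrd1 had 297 and 193.5 CPM in the Isl1Cre libraries at E7.75, 1761 and 1598 at E8.25, 1724 and 1857 at E8.75 and 1846 at E9.25. In the Nkx2-5Cre libraries it had 560.5 and 428.9 CPM at E7.75, 1863 and 1611 at E8.25, 2207 and 2288 at E8.75 and 1743 and 1364 at E9.25. All E7.75 libraries lay below all later libraries, and the lineages overlapped at E8.25. Hspb1 had 78.5 and 75.1 CPM in Isl1Cre at E7.75, 525.2 and 335.2 at E8.25, 1373 and 1248 at E8.75 and 2011 at E9.25. Its Nkx2-5Cre libraries had 145.8 and 140.4 CPM at E7.75, 1336 and 1041 at E8.25, 1889 and 1838 at E8.75 and 2277 and 2232 at E9.25. Hspb1 was the one member whose libraries of successive stages did not overlap within either lineage. Hspb7 had 5.99 and 4.51 CPM in Isl1Cre at E7.75, 37.4 and 25.5 at E8.25, 72.7 and 65.9 at E8.75 and 91.8 at E9.25. In Nkx2-5Cre it had 23.5 and 14.3 CPM at E7.75, 95.8 and 66.1 at E8.25, 87.6 and 92.3 at E8.75 and 77.4 and 58.6 at E9.25. The Nkx2-5Cre levels of Hspb7 at E8.25 overlapped those at E8.75 and at E9.25, whose libraries lay below those of E8.75, and those of Isl1Cre did not overlap between stages.

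Abra had 1.85 and 0.513 CPM in Isl1Cre at E7.75, 43.0 and 39.4 at E8.25, 57.1 and 44.4 at E8.75 and 26.0 at E9.25. The Nkx2-5Cre libraries had 5.54 and 5.17 CPM at E7.75, 56.7 and 62.7 at E8.25, 60.7 and 76.5 at E8.75 and 82.3 and 66.3 at E9.25. Within each stage every Isl1Cre library lay below every Nkx2-5Cre library. Xirp1 had 8.79 and 16.7 CPM in Isl1Cre at E7.75, 26.2 and 32.03 at E8.25, 80.7 and 57.8 at E8.75 and 59.2 at E9.25. In Nkx2-5Cre it had 21.2 and 18.3 CPM at E7.75, 39.6 and 53.5 at E8.25, 52.0 and 49.0 at E8.75 and 38.7 and 44.7 at E9.25. At E7.75 and E8.25 every Isl1Cre library of Xirp1 lay below both of Nkx2-5Cre, and at E8.75 and E9.25 every one lay above both.

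**Figure D1:**
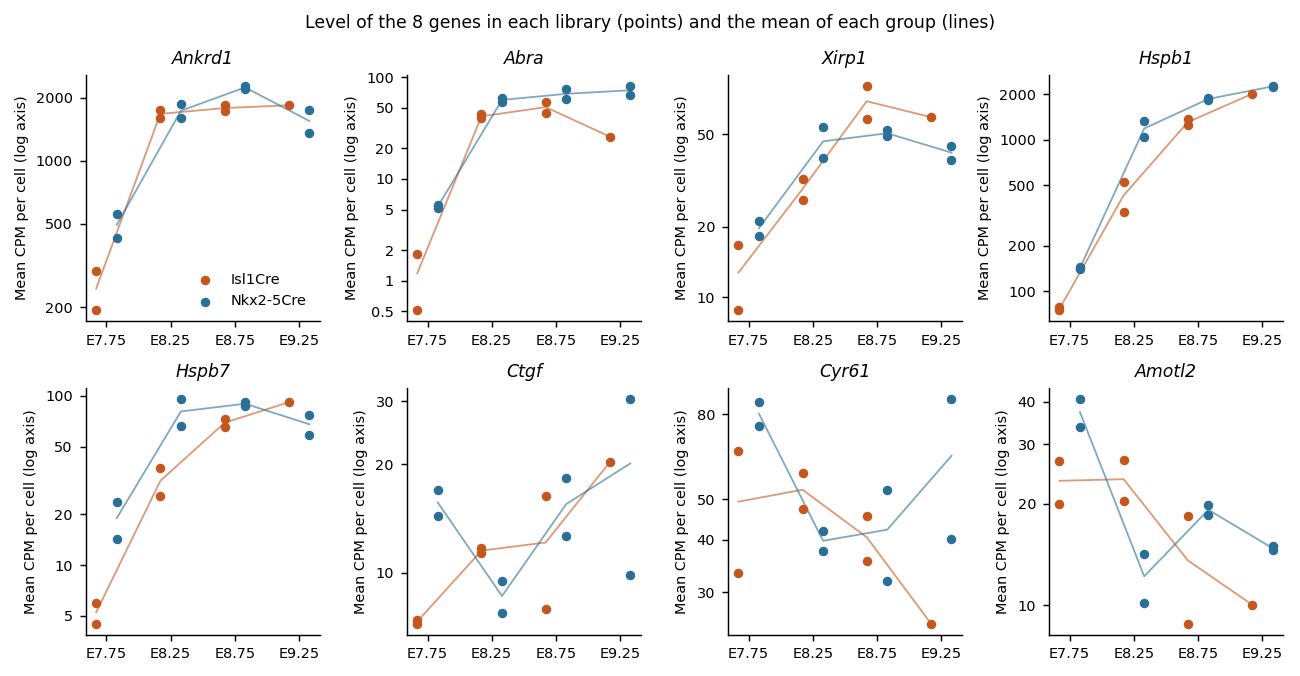
Mean CPM of each library over its kept cells (points, log axis, a separate range for each gene) by stage, with lines through the group means; Isl1Cre is drawn left of Nkx2-5Cre, and Isl1Cre E9.25 has 1 library. The 5 genes of the first panels start low at E7.75, with Ankrd1 at 193.5 to 560.5 CPM against 1364 to 2288 CPM later, whereas Ctgf, Cyr61 and Amotl2 show no common rise.

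The changes over stages were tested as a linear change per day on log2(mean CPM + 1) with limma, and a gene was called at an adjusted p under 0.05. In Isl1Cre 5 of the 8 members rose, against 13.0% of all genes tested, and 1 fell, against 10.2%. In Nkx2-5Cre the count was again 5 rising and 1 falling, against 13.2% and 11.6% of all genes. Hspb1 rose by 3.17 ± 0.12 log2 per day in Isl1Cre (SE, adjusted p = 9.56e-13) and by 2.51 ± 0.10 in Nkx2-5Cre (adjusted p = 7.7e-12). Abra rose by 2.32 ± 0.24 in Isl1Cre (adjusted p = 7.76e-07) and by 2.18 ± 0.20 in Nkx2-5Cre (adjusted p = 3.4e-07). Ankrd1 rose by 1.81 ± 0.13 in Isl1Cre (adjusted p = 5.41e-09) and by 1.07 ± 0.11 in Nkx2-5Cre (adjusted p = 1.03e-06). Hspb7 rose by 2.60 ± 0.21 and 1.13 ± 0.18 in Isl1Cre and Nkx2-5Cre, and Xirp1 by 1.59 ± 0.22 and 0.65 ± 0.18. The Xirp1 call in Nkx2-5Cre, at an adjusted p of 0.0134, was lost without replicate 2 of E7.75 (adjusted p = 0.0721) or of E9.25 (0.0908). With the libraries of a group averaged to 1 value, 3 members were called in Isl1Cre, Hspb1, Hspb7 and Xirp1, and in Nkx2-5Cre none of the 6 was, the smallest adjusted p being 0.0931, for Hspb1.

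The step between E7.75 and E8.25 was called for all 5 muscle members in both lineages. They rose in Isl1Cre, against 7.97% of all genes rising and 4.25% falling, and in Nkx2-5Cre, against 7.92% and 5.91%. Abra rose by 4.29 ± 0.31 log2 in Isl1Cre and by 3.26 ± 0.31 in Nkx2-5Cre, on a scale where 1 CPM is added and its E7.75 level was near that amount. Ankrd1 rose by 2.73 ± 0.17 in Isl1Cre and by 1.82 ± 0.17 in Nkx2-5Cre, and Hspb1 by 2.36 ± 0.16 and 3.04 ± 0.16. Hspb7 rose by 2.30 ± 0.28 in Isl1Cre and by 2.06 ± 0.28 in Nkx2-5Cre. Xirp1 rose by 1.12 ± 0.29 in Isl1Cre (adjusted p = 0.0131) and by 1.19 ± 0.29 in Nkx2-5Cre (adjusted p = 0.00875). Its call was lost without Isl1Cre E7.75 replicate 1 (adjusted p = 0.221), Isl1Cre E8.25 replicate 2 (0.127), Nkx2-5Cre E7.75 replicate 2 (0.0627) or Nkx2-5Cre E8.25 replicate 2 (0.0996). In Isl1Cre it was also lost by edgeR (0.88, adjusted p = 0.0693) and DESeq2 (0.84, adjusted p = 0.0529). With cells thinned to 5000 counts Xirp1 gave 0.59 in Isl1Cre (adjusted p = 0.653) and 0.57 in Nkx2-5Cre (0.658), and the Hspb7 call in Nkx2-5Cre was lost (1.79, adjusted p = 0.103). The share of cells in clusters named cardiomyocyte-like was 67.7% in both Isl1Cre libraries at E8.25, against 2.2% and 2.4% at E7.75. In Nkx2-5Cre it was 88.3% and 82.8% at E8.25, against 0.0% and 9.6% at E7.75. Every E7.75 cell so named belonged to a shallow cluster. At E7.75, 72 Isl1Cre and 108 Nkx2-5Cre cells lay in 1 cluster each that the naming rule, chosen after seeing the data, left unnamed. Of 15 cardiomyocyte markers, 7 were raised in that Isl1Cre cluster and 13 in that Nkx2-5Cre cluster. The low shares at E7.75 are therefore no measure of how many cells had cardiomyocyte markers. The part of the share in these changes was not tested in the means over all cells.

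From E8.25 to E9.25 Hspb1 rose in both lineages and Hspb7 in Isl1Cre. In Isl1Cre, where 4.37% of all genes rose, Hspb1 rose by 2.36 ± 0.20 log2 (adjusted p = 7.71e-07) and Hspb7 by 1.64 ± 0.34 (adjusted p = 0.0048; 0.463 with cells thinned to 5000 counts). Xirp1 differed by 1.11 ± 0.35 (adjusted p = 0.0585) and passed the test with a replicate block (0.043), without Isl1Cre E7.75 replicate 1 (0.0339) or replicate 2 (0.0355), by edgeR (0.0236) and by DESeq2 (0.0104). In Nkx2-5Cre, where 0.319% of all genes rose, Hspb1 was the 1 member called, at 0.93 ± 0.16 (adjusted p = 0.00707). That call was lost without Nkx2-5Cre E8.25 replicate 2 (adjusted p = 0.0552), E9.25 replicate 1 (0.0677) or E9.25 replicate 2 (0.098), and with no filter on low values (0.123). Each E9.25 value of Isl1Cre rests on 1 library, which was taken to vary like the others.

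For Amotl2, Cyr61 and Ctgf no rise passed the test in the main fit, unlike for Ankrd1, which is also a known YAP target. Amotl2 had 19.9 and 26.8 CPM in Isl1Cre at E7.75, 26.8 and 20.4 at E8.25, 18.3 and 8.84 at E8.75 and 10.1 at E9.25. The Nkx2-5Cre levels were 40.7 and 33.8 CPM at E7.75, 14.2 and 10.2 at E8.25, 19.8 and 18.5 at E8.75 and 14.6 and 14.98 at E9.25. Its E7.75 libraries lay above all later ones in Nkx2-5Cre but overlapped E8.25 in Isl1Cre. Amotl2 fell by 0.81 ± 0.26 log2 per day in Isl1Cre (adjusted p = 0.0307) and by 0.64 ± 0.22 in Nkx2-5Cre (adjusted p = 0.0403), and fell by 1.54 ± 0.34 between E7.75 and E8.25 in Nkx2-5Cre (adjusted p = 0.0052). The change per day in Isl1Cre lost its call without E7.75 replicate 2 (adjusted p = 0.127), E8.25 replicate 1 (0.0504) or E9.25 replicate 1 (0.0774). That in Nkx2-5Cre lost it without any 1 of 7 of its 8 libraries, E8.25 replicate 2 being the exception, with adjusted p-values of 0.051 to 0.145. The step to E8.25 lost it without Nkx2-5Cre E8.25 replicate 2 (adjusted p = 0.0595). With cells thinned to 5000 counts none of these 3 was called, at adjusted p-values of 0.275, 0.151 and 0.152, and with no filter on low values both changes per day lost the call (0.0527 and 0.0652).

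Cyr61 had 65.4 and 33.4 CPM in Isl1Cre at E7.75, 47.5 and 57.9 at E8.25, 45.7 and 35.5 at E8.75 and 25.2 at E9.25. In Nkx2-5Cre it had 85.4 and 75.0 CPM at E7.75, 37.6 and 42.0 at E8.25, 31.9 and 52.8 at E8.75 and 40.3 and 86.9 at E9.25. Replicate 2 of Nkx2-5Cre E9.25 was as high as the E7.75 libraries, and replicate 1 was not. Ctgf had 7.42 and 7.23 CPM in Isl1Cre at E7.75, 11.3 and 11.7 at E8.25, 16.4 and 7.92 at E8.75 and 20.3 at E9.25. In Nkx2-5Cre it had 14.4 and 17.0 CPM at E7.75, 7.73 and 9.51 at E8.25, 12.7 and 18.4 at E8.75 and 9.88 and 30.4 at E9.25. Replicate 2 of Nkx2-5Cre E9.25 was the highest library for Ctgf and for Cyr61. The change per day was 0.84 ± 0.35 log2 for Ctgf (adjusted p = 0.0906) and -0.57 ± 0.26 for Cyr61 (adjusted p = 0.134) in Isl1Cre. In Nkx2-5Cre neither passed the test. In Isl1Cre the Ctgf value was called without Nkx2-5Cre E9.25 replicate 1 (adjusted p = 0.0497) or Isl1Cre E8.75 replicate 2 (0.0493), and that of Cyr61 without Isl1Cre E7.75 replicate 2 (0.038), by edgeR (0.0155) and by DESeq2 (0.00736). Between E7.75 and E8.25 in Nkx2-5Cre, Cyr61 differed by -0.99 ± 0.34 (adjusted p = 0.0642), and it was called without either Isl1Cre E7.75 library (0.0452 and 0.0438) or either Nkx2-5Cre E9.25 library (0.037 and 0.0383). The 5 highest cells of a library held 36.2% to 84.6% of its summed Ctgf, against 10.7% to 43.5% for Hspb1, so the Ctgf means rest on few cells.

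Between the lineages, the differences that passed the test in the main fit were all lower levels in Isl1Cre, and those at single stages were at E7.75 and E8.25. Averaged over the 4 stages, 3 of the 8 members were at lower levels in Isl1Cre, against 3.68% of all genes lower and likewise 3.68% higher. Abra differed by -0.99 ± 0.16 log2 (adjusted p = 0.00133), Hspb1 by -0.74 ± 0.09 (adjusted p = 3.86e-05) and Hspb7 by -0.70 ± 0.15 (adjusted p = 0.00651; 0.0715 with cells thinned to 5000 counts). Ankrd1 differed by -0.26 ± 0.09 (adjusted p = 0.0843), was called with a replicate block (adjusted p = 0.0291), without Isl1Cre E7.75 replicate 1 (0.0149) and without Isl1Cre E9.25 replicate 1 (-0.46 ± 0.10, adjusted p = 0.00603). With the libraries of a group averaged to 1 value no member was called, at adjusted p-values of 0.324 for Abra, 0.388 for Hspb1 and 0.577 for Hspb7. For Tnnt2, the cardiac troponin T gene of the thin filament, the difference was -0.25 ± 0.06 (adjusted p = 0.0225).

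At E7.75, where 3.81% of all genes were lower and 3.33% higher in Isl1Cre, 4 members were lower. Hspb7 differed by -1.60 ± 0.28 log2 (adjusted p = 0.00135), Abra by -1.59 ± 0.31 (adjusted p = 0.00334), Ankrd1 by -0.98 ± 0.17 (adjusted p = 0.00112) and Hspb1 by -0.84 ± 0.16 (adjusted p = 0.0027). The Abra call was lost without Isl1Cre E7.75 replicate 2 (adjusted p = 0.0614) and with 10 CPM added in place of 1 CPM (-0.45, adjusted p = 0.214), and the Ankrd1 call with DESeq2 (-0.57, adjusted p = 0.07). Xirp1 differed by -0.61 ± 0.29 (adjusted p = 0.232). Tnnt2 differed by -0.65 ± 0.12 at this stage.

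At E8.25, where 2.61% of all genes were lower and 2.5% higher, Hspb1 differed by -1.52 ± 0.16 log2 (adjusted p = 2.08e-05) and Hspb7 by -1.36 ± 0.28 (adjusted p = 0.00722). These were the 2 members called by limma, while 4 were under an unadjusted p of 0.05, edgeR called 3 and DESeq2 called 4. Amotl2, which limma did not call, was higher in both Isl1Cre libraries than in both of Nkx2-5Cre. The Ankrd1 libraries of the lineages overlapped at this stage. The Hspb7 call was lost without Nkx2-5Cre E8.25 replicate 1 (adjusted p = 0.0985) or Isl1Cre E8.25 replicate 2 (0.126), and with cells thinned to 5000 counts (-1.04, adjusted p = 0.582). The 15 cardiomyocyte markers summed to 27000 and 26890 CPM in Isl1Cre and 47170 and 43080 CPM in Nkx2-5Cre at this stage, and Tnnt2 differed by -0.47 ± 0.12 (adjusted p = 0.0299); their part in these differences was not tested. At E8.75, limma called none of the members and 0.319% of all genes; 1 member was under an unadjusted p of 0.05, and edgeR and DESeq2 called 0 members. At E9.25 limma called none of the members and 0.975% of all genes; 2 members were under an unadjusted p of 0.05, edgeR called 0 and DESeq2 called 2. Abra differed there by -1.39 ± 0.38 (adjusted p = 0.0925), and it passed the test without Isl1Cre E7.75 replicate 2 (adjusted p = 0.0492), with 10 CPM added (0.0305) and by DESeq2 (0.0256).

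The rise per day itself was steeper in Isl1Cre than in Nkx2-5Cre for 3 of the 8 members, against 1.88% of all genes with a higher and 0.694% with a lower change per day. The difference was 1.47 ± 0.28 log2 per day for Hspb7 (adjusted p = 0.00502), 0.74 ± 0.17 for Ankrd1 (adjusted p = 0.0191) and 0.66 ± 0.16 for Hspb1 (adjusted p = 0.032). Xirp1 gave 0.94 ± 0.28 (adjusted p = 0.0873), and was called without Isl1Cre E7.75 replicate 2 (0.0299) or Isl1Cre E9.25 replicate 1 (0.00322). The Ankrd1 call was lost without Nkx2-5Cre E7.75 replicate 1 (adjusted p = 0.0653), Nkx2-5Cre E9.25 replicate 2 (0.0944) or Isl1Cre E7.75 replicate 2 (0.0616), by edgeR (0.47, adjusted p = 0.187), by DESeq2 (0.44, adjusted p = 0.241) and with no filter on low values (0.127). The Hspb7 call was lost with cells thinned to 5000 counts (1.66, adjusted p = 0.278). The Hspb1 call was lost without any 1 of 6 libraries, both Isl1Cre E7.75 replicates (adjusted p = 0.071 and 0.0864), both Nkx2-5Cre E7.75 replicates (0.0603 and 0.0624) and both Nkx2-5Cre E9.25 replicates (0.0686 and 0.0984), with all cells kept (0.0613) and with no filter on low values (0.142). Tnnt2 gave 0.67 ± 0.12 (adjusted p = 0.00386).

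**Figure D2:**
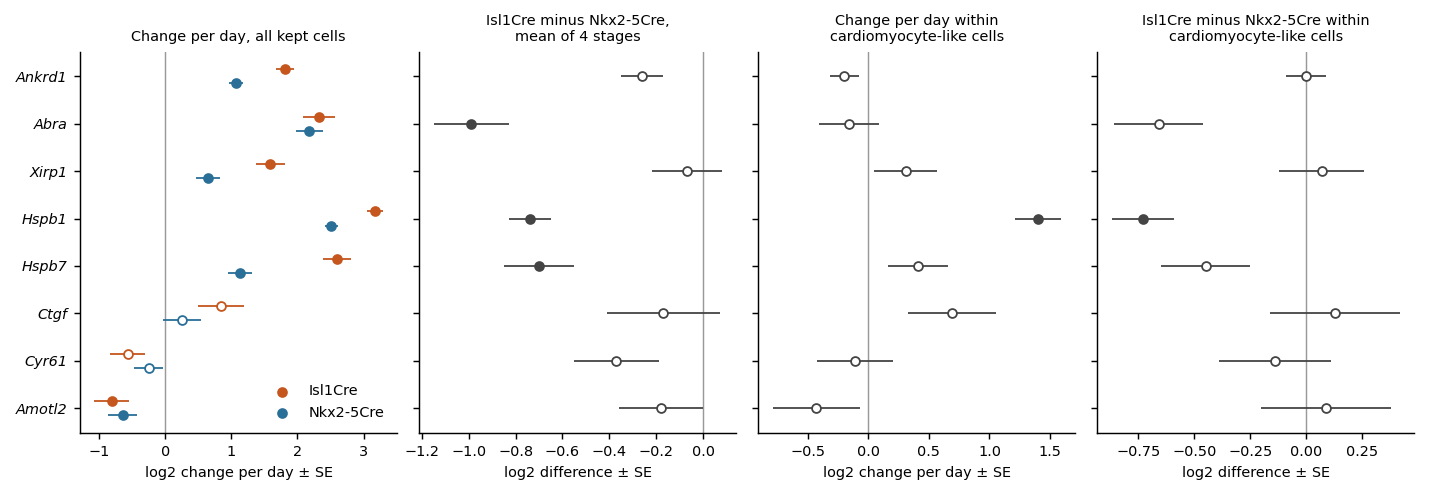
Log2 changes with their SE for the 8 genes, filled where the limma adjusted p was under 0.05: change per day in each lineage, Isl1Cre minus Nkx2-5Cre over the 4 stages, and, within cardiomyocyte-like cells over 11 libraries from E8.25 to E9.25, 1 change per day shared by both lineages and Isl1Cre minus Nkx2-5Cre. In all kept cells 6 genes are filled in each lineage for change per day; within cardiomyocyte-like cells Hspb1 is the 1 filled gene in both panels, at 1.40 and -0.73.

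Cells were clustered without the 8 members, and clusters were named from marker lists, which gave 837 cardiomyocyte-like, 122 heart field progenitor-like, 117 endothelial-like and 40 endoderm-like cells and left 216 unnamed. The levels by class are descriptions of these clusters. In cardiomyocyte-like cells Ankrd1 averaged 2069 CPM, against 108.4 in progenitor-like, 156.9 in endothelial-like and 123.4 in endoderm-like cells. Hspb1 averaged 1675 CPM in cardiomyocyte-like cells and 51.3, 176.1 and 53.4 CPM in progenitor-like, endothelial-like and endoderm-like cells. For Abra the class averages were 64.3, 1.60, 2.85 and 2.56 CPM in the same order, for Xirp1 53.9, 4.89, 4.70 and 2.95 CPM, and for Hspb7 79.0, 7.53, 13.3 and 4.53 CPM. In each of these 5 genes the lowest library of cardiomyocyte-like cells, among 11 libraries with at least 10 of them, lay above the highest library of progenitor-like cells. Those 11 libraries were all from E8.25 or later, whereas 63 progenitor-like cells came from Isl1Cre E7.75 and 47 from Nkx2-5Cre E7.75. Class and stage therefore cannot be told apart in this comparison. Ankrd1 averaged 19.5 CPM in these Isl1Cre and 213.4 CPM in these Nkx2-5Cre progenitor-like cells, which also differed in Tnnt2, at 345.8 and 1152 CPM. Endothelial-like cells can be compared within 1 stage. In Nkx2-5Cre at E9.25, 32 of them averaged 222.4 CPM of Ankrd1 and 382.9 CPM of Hspb1, against 1831 and 2648 CPM in cardiomyocyte-like cells. In the same order, Abra had 4.51 and 88.9 CPM, Xirp1 6.42 and 49.1 CPM, and Hspb7 14.9 and 79.0 CPM.

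The other 3 genes were spread over the classes. Cyr61 averaged 48.2 CPM in cardiomyocyte-like, 45.1 in progenitor-like, 40.5 in endothelial-like and 74.3 in endoderm-like cells. Amotl2 averaged 15.7 CPM in cardiomyocyte-like cells and 31.8, 23.6 and 36.3 CPM in the progenitor-like, endothelial-like and endoderm-like classes. Ctgf averaged 15.6, 8.36, 7.54 and 9.24 CPM in that order, and its libraries overlapped between cardiomyocyte-like and the other classes with a range.

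Of the unnamed cells, 110 formed a cluster mostly from Nkx2-5Cre E7.75 and 73 a cluster mostly from Isl1Cre E7.75. Of 15 cardiomyocyte markers, 7 were raised in the Isl1Cre cluster and 13 in the Nkx2-5Cre cluster, which stayed unnamed because none of the 15 was among its 10 leading genes. The members had levels between those of progenitor-like and cardiomyocyte-like cells there for the 5 muscle genes: Ankrd1 averaged 517.9 CPM in the Isl1Cre cluster and 692.1 in the Nkx2-5Cre cluster, Hspb1 147.7 and 171.3, Xirp1 29.5 and 28.2, Hspb7 10.9 and 22.98, and Abra 2.97 and 6.83 CPM. Tnnt2 averaged 2310 CPM in the Isl1Cre cluster and 2383 CPM in the Nkx2-5Cre cluster, against 5686 CPM in cardiomyocyte-like cells.

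**Figure D3:**
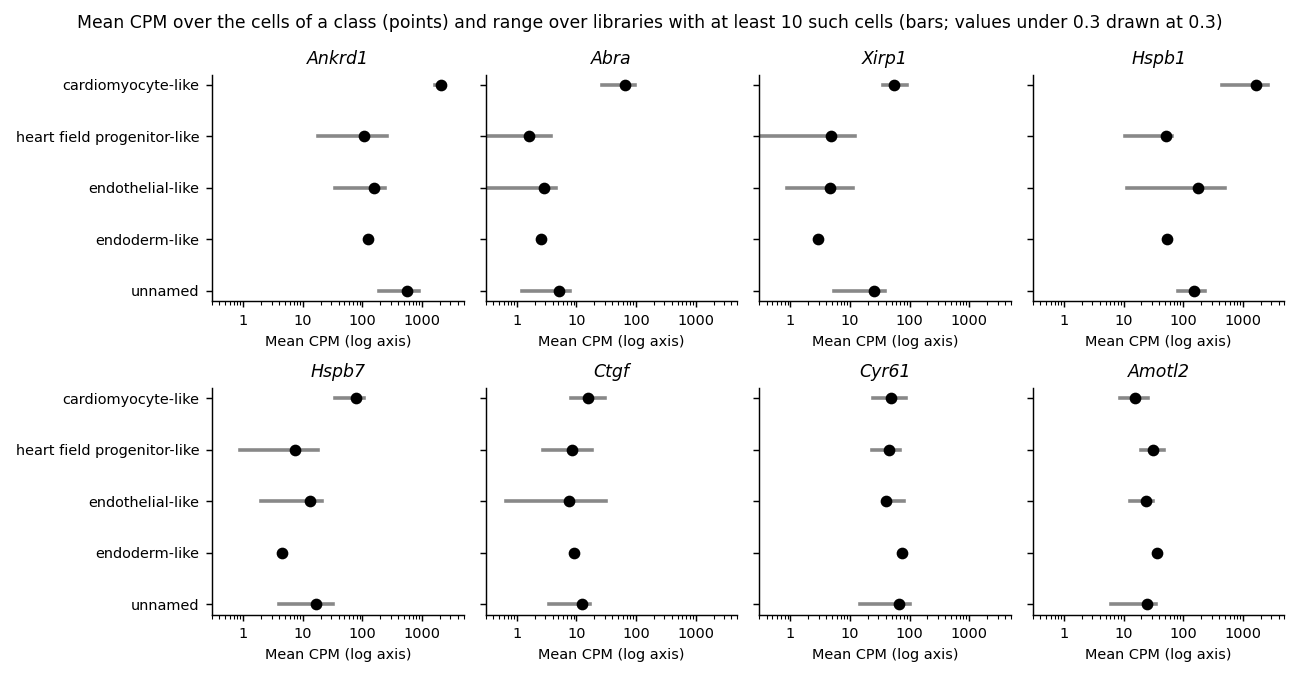
Mean CPM over all cells of a class (points, log axis) and the range of library means where a library has at least 10 cells of it (bars). Progenitor-like cells came mostly from E7.75, and class and stage are not separated here. Ankrd1, Abra, Xirp1, Hspb1 and Hspb7 are highest in cardiomyocyte-like cells, as with Ankrd1 at 2069 CPM; Ctgf, Cyr61 and Amotl2 are not set apart, as with Cyr61 at 48.2 CPM in cardiomyocyte-like and 45.1 CPM in progenitor-like cells.

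Within cardiomyocyte-like cells from E8.25 on, most of the differences seen in means over all cells from E7.75 on did not pass the test. The spans differ: for E9.25 minus E8.25 the means over all cells called 2 members in Isl1Cre and 1 in Nkx2-5Cre. The fit within cardiomyocyte-like cells used 11 libraries from E8.25 to E9.25 and 10222 genes, with stage and lineage as additive terms. Per day, 1 member rose, Hspb1, against 1.18% of all genes. Hspb1 averaged 719 and 452.3 CPM in Isl1Cre cells at E8.25, 1533 and 1366 at E8.75 and 2052 at E9.25. In Nkx2-5Cre cells it averaged 1498 and 1247 CPM at E8.25, 2052 and 1903 at E8.75 and 2601 and 2697 at E9.25. The stages did not overlap within either lineage, and at each stage the Isl1Cre libraries lay below those of Nkx2-5Cre. Hspb1 rose by 1.40 ± 0.19 log2 per day (adjusted p = 0.00078; 0.0521 with no filter on low values) and differed by -0.73 ± 0.14 between Isl1Cre and Nkx2-5Cre (adjusted p = 0.0165), the 1 member called between lineages, where 0.342% of all genes were lower. The call between lineages was lost with edgeR (-0.57, adjusted p = 0.111), with the libraries of a group averaged (0.269) and with no filter on low values (0.195).

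Ankrd1 within cardiomyocyte-like cells averaged 2472 and 2256 CPM in Isl1Cre at E8.25, 1935 and 2040 at E8.75 and 1884 at E9.25, and 2094 and 1937, 2398 and 2367, and 2016 and 1642 CPM in Nkx2-5Cre at the same stages. The Isl1Cre libraries lay above those of Nkx2-5Cre at E8.25, below them at E8.75 and between them at E9.25. Ankrd1 changed by -0.20 ± 0.12 log2 per day (adjusted p = 0.462). Hspb7 changed by 0.41 ± 0.25 per day (adjusted p = 0.47) and differed by -0.45 ± 0.20 between Isl1Cre and Nkx2-5Cre (adjusted p = 0.318). These values average over unlike courses. Its group means were 42.1, 77.0 and 93.8 CPM in Isl1Cre at E8.25, E8.75 and E9.25, and 92.8, 91.9 and 78.9 CPM in Nkx2-5Cre. Whether its change over stages differs between the lineages within these cells was not tested. Abra differed between the lineages by -0.66 ± 0.20 (adjusted p = 0.129): it averaged 60.9 and 55.9 CPM in Isl1Cre at E8.25, 64.5 and 47.9 at E8.75 and 26.6 at E9.25, and 63.8 and 75.5, 66.3 and 79.9, and 96.4 and 81.2 CPM in Nkx2-5Cre. Every Isl1Cre library of Abra lay below both Nkx2-5Cre libraries of its stage. Whether the change over stages differs between all cells and cardiomyocyte-like cells was not tested, and no E7.75 library held 10 such cells.

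The share of cells with at least 1 count did not always follow the level where depth differed. For Xirp1 in Nkx2-5Cre it averaged 65.3% of cells at 50.5 CPM at E8.75, and 72.5% at 19.7 CPM at E7.75. With cells thinned to 5000 counts these Xirp1 shares averaged 21.4% at E8.75 and 4.5% at E7.75, in the order of the levels. Abra was counted in 9 of 90 and 3 of 85 Isl1Cre cells and in 28 of 91 and 27 of 94 Nkx2-5Cre cells at E7.75, and in 52.7% to 78.7% of the cells of later libraries. Hspb7 was counted in 24.4% and 18.8% of Isl1Cre cells and 85.7% and 61.7% of Nkx2-5Cre cells at E7.75, at medians of 105340 and 127704 counts per cell in Isl1Cre and 360929 and 203581 in Nkx2-5Cre. With every cell thinned to 5000 counts these shares were 2.3% and 0.0% in Isl1Cre and 9.1% and 3.4% in Nkx2-5Cre. Ankrd1 at equal depth was counted in 34.5% and 28.9% of Isl1Cre cells and 56.8% and 60.7% of Nkx2-5Cre cells at E7.75, and in 81.1% to 98.8% later. Tnnt2 was counted in 100% of the endothelial-like cells, at a mean of 537 CPM, and Ankrd1 in 94.9%. Median depth was 114165 counts per endothelial-like and 109051 per cardiomyocyte-like cell. Whether these counts are background or expression in the endothelial-like cells was not tested. After thinning, Ankrd1 was counted in 48.7% of endothelial-like and 93.8% of cardiomyocyte-like cells, and Cyr61 in 20.9% and 15.8%.

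Across the cells of a library, the muscle members had higher correlations with Tnnt2 than the other 3 genes by their medians. Pearson r of log2(CPM + 1) with Tnnt2 was computed in each of the 15 libraries over 61 to 94 cells, as a description; the cells share a library, and r with depth is given below. For Ankrd1 it lay between 0.35 and 0.87 with a median of 0.60, and for Hspb1 between 0.26 and 0.86 with a median of 0.51. The medians were 0.38 for Xirp1, 0.37 for Hspb7 and 0.31 for Abra, and all 15 values were above 0 for each of these 5 genes. Ctgf had a median of 0.10, Cyr61 of 0.06 and Amotl2 of -0.11, with values above 0 in 14 libraries for Ctgf, 13 for Cyr61 and 1 for Amotl2. By lineage and stage, Ankrd1 was highest in Isl1Cre at E8.25, at 0.87 and 0.83, where cardiomyocyte-like cells were 67.7% of the cells, and lowest in Isl1Cre at E9.25, at 0.35, where they were 97.8%. Within cardiomyocyte-like cells it was likewise highest in Isl1Cre at E8.25, at 0.76 and 0.68, against 0.03 to 0.35 in the other libraries, and Hspb7 had 0.46 and 0.64 there, against -0.24 to 0.25. For Hspb1 the values were 0.34 to 0.59 in Isl1Cre up to E8.75 and 0.26 at E9.25, and 0.35 and 0.50 in Nkx2-5Cre at E7.75 and 0.67 to 0.86 later. By Spearman rank correlation the order of the lineages for Hspb1 was reversed at E8.25, with 0.65 and 0.67 in Isl1Cre and 0.40 and 0.47 in Nkx2-5Cre. The lineages overlapped by that measure at E7.75 and E8.75. At E9.25 Isl1Cre had 0.13 and Nkx2-5Cre 0.55 and 0.66. Spearman values were above 0 in 14 libraries for Abra and for Hspb7.

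Within cardiomyocyte-like cells the medians over 11 libraries were 0.33 for Hspb1, 0.29 for Ankrd1, 0.23 for Abra and 0.13 for Xirp1, and -0.02 for Hspb7, 0.06 for Ctgf, 0.00 for Cyr61 and 0.00 for Amotl2. At 5000 counts per cell the medians over all kept cells were 0.46 for Ankrd1, 0.43 for Hspb1 and 0.15 to 0.16 for Xirp1, Hspb7 and Abra. The median r with the cell's total count was -0.02 for Ankrd1, 0.15 to 0.22 for the other muscle genes, and 0.17, 0.26 and 0.23 for Ctgf, Cyr61 and Amotl2. Myocd, the gene of the SRF partner myocardin, had a median of 0.62 with Tnnt2 and Yap1 of -0.04.

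**Figure D4:**
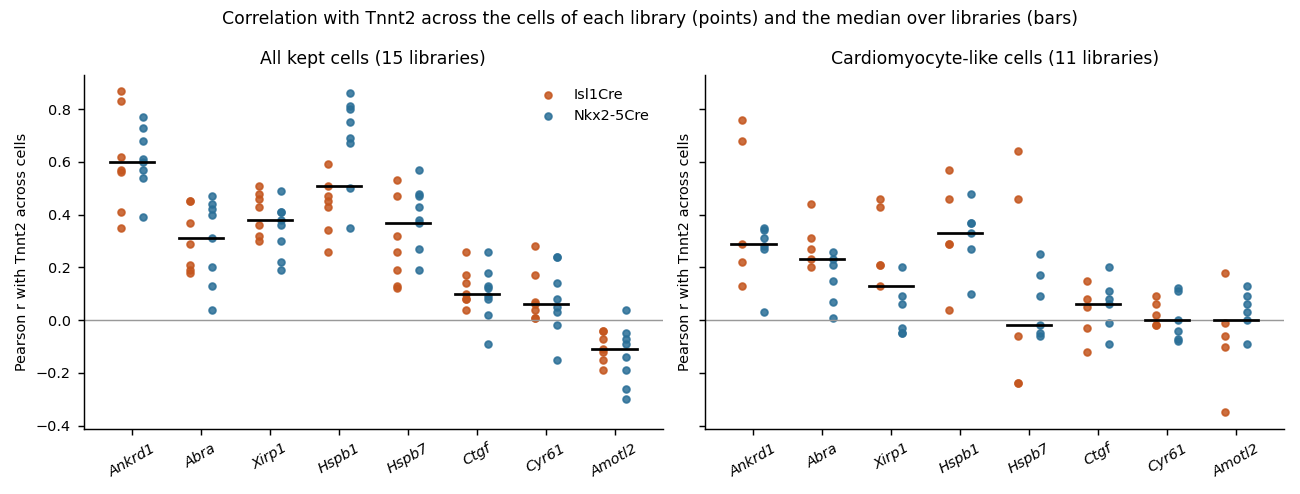
Pearson r with Tnnt2 across the cells of each library (points, Isl1Cre left of Nkx2-5Cre for each gene) and the median over libraries (bars), for all kept cells and for cardiomyocyte-like cells. In all kept cells the medians run from 0.60 for Ankrd1 to -0.11 for Amotl2, and in cardiomyocyte-like cells the highest median is 0.33, for Hspb1.

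Among the members themselves, the highest median r across cells was 0.49, for Ankrd1 with Hspb1, followed by 0.39 for Ankrd1 with Xirp1 and 0.35 for Hspb1 with Hspb7. Ctgf and Cyr61 had a median of 0.18 with each other, and Ankrd1 had 0.24 with Ctgf and 0.14 with Cyr61. Within cardiomyocyte-like cells Ankrd1 had medians of 0.25 with Ctgf, 0.22 with Abra, 0.20 with Cyr61 and 0.17 with Hspb1. Its medians were 0.13 with Amotl2, 0.12 with Xirp1 and 0.1 with Hspb7. The ranges over libraries overlapped, as with -0.06 to 0.26 for Cyr61 and -0.15 to 0.34 for Hspb1.

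The genes whose levels over the 15 libraries were most like a member's, among 4105 searched, were Tnni3, Nppa and Chchd10 for Hspb1 (r of 0.987, 0.986 and 0.985) and Cryab, Acta2 and Actn2 for Hspb7 (0.985, 0.982 and 0.982). For Ankrd1 they were Ccdc107, Slc16a3 and Mfge8 (0.982, 0.971 and 0.969), for Abra Cd81, Plekha2 and Prkcdbp (0.985, 0.966 and 0.966) and for Xirp1 Myom1, Lmo7 and Hrc (0.966, 0.958 and 0.952). Across the cells within libraries, among 8399 genes, Ankrd1 was most like Actc1, Myl7 and Tnnc1 (medians of 0.66, 0.62 and 0.62), Hspb1 like Myl9, Chchd10 and Myl3 (0.65, 0.58 and 0.57), Hspb7 like Actc1, Tpm1 and Myl4 (0.45, 0.43 and 0.42), Xirp1 like Nexn, Ttn and Acta2 (0.40 each), and Abra like Myh7, Tdgf1 and Ckb (0.43, 0.40 and 0.38). Cyr61 was most like Fos, 4921524J17Rik and Pim3 (0.28, 0.27 and 0.26), and Ctgf like Tagln, Fos and Polr2d (0.21, 0.21 and 0.19). Fos is an immediate early gene that also responds to dissociation; the 21 genes of an immediate early and dissociation stress list summed to 1532 to 2463 CPM per library, with 2463 and 2447 CPM in Isl1Cre and 2325 and 1792 CPM in Nkx2-5Cre at E7.75, and their part in the Ctgf and Cyr61 levels was not tested. Amotl2 was most like Pgrmc1, Fen1 and Rnd3 (0.24, 0.23 and 0.22).

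Among the regulators, Tead2 fell and Fhl2 rose in both lineages, and Yap1, Wwtr1 and Tead1 did not pass the test in either. Of 5 tested genes of YAP, TAZ and TEAD, Tead2 was the 1 called, falling per day by 1.02 ± 0.13 log2 in Isl1Cre and by 0.91 ± 0.11 in Nkx2-5Cre. Yap1 changed by 0.20 ± 0.23 per day in Isl1Cre and by -0.36 ± 0.19 in Nkx2-5Cre, and Tead1 by 0.44 ± 0.18 and 0.12 ± 0.15. Wwtr1, the gene of TAZ, gave -0.06 ± 0.28 in Isl1Cre and -0.12 ± 0.24 in Nkx2-5Cre. Srf gave 0.00 ± 0.17 per day in Isl1Cre and fell by 0.91 ± 0.14 in Nkx2-5Cre (adjusted p = 0.000107). The difference of these changes, 0.90 ± 0.22, passed the test (adjusted p = 0.0313) and lost its call under 9 of 24 alternatives, 6 of which left out Isl1Cre E7.75 replicate 2, Isl1Cre E9.25 replicate 1, or any 1 of the Nkx2-5Cre libraries of E7.75 or E9.25. Myocd changed by 0.48 ± 0.24 per day in Isl1Cre (adjusted p = 0.16) and rose by 0.66 ± 0.20 in Nkx2-5Cre (adjusted p = 0.0196), a call lost without Nkx2-5Cre E7.75 replicate 1 or 2 or E9.25 replicate 2. Fhl2, a muscle cofactor of SRF, rose by 1.02 ± 0.16 in Isl1Cre and by 0.91 ± 0.13 in Nkx2-5Cre.

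Of 16 tested Hippo kinases, scaffolds and inhibitors of YAP, 5 rose and 1 fell per day in Isl1Cre, with a median change of 0.03 log2, and 2 fell in Nkx2-5Cre, with a median of 0.01, against a median of -0.01 over all genes in both; of all genes, 13.0% rose and 10.2% fell in Isl1Cre, and 13.2% rose and 11.6% fell in Nkx2-5Cre. Those that rose in Isl1Cre included Taok3 by 1.29 ± 0.31 and Mob1b by 0.95 ± 0.22, and with edgeR or DESeq2, which tested 18 genes of the list, 2 rose there. Amot, an angiomotin like Amotl2, fell by 0.86 ± 0.20 in Isl1Cre, a call lost without Isl1Cre E9.25 replicate 1 and with thinning, and fell by 1.00 ± 0.17 in Nkx2-5Cre. Of 14 tested genes of a YAP target signature other than the members, 1 fell in Isl1Cre, and 2 rose and 1 fell in Nkx2-5Cre, where Asap1 rose by 1.00 ± 0.18; these counts are near the shares of all genes.

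Most of the stretch-responsive muscle genes rose in both lineages, and the other muscle lists held rising and falling genes. Of 13 tested stretch-responsive muscle genes other than the members, 12 rose per day in Isl1Cre, with a median change of 2.28 log2, and 11 in Nkx2-5Cre, with a median of 1.55. Among all genes tested, 13.0% rose and 10.2% fell per day in Isl1Cre, and 13.2% rose and 11.6% fell in Nkx2-5Cre. Nppa, Myh7 and Smpx of this list are also cardiomyocyte markers used to name clusters, as is Actc1 of the SRF list below. The part of the share of cardiomyocytes in these changes was not tested. Nppa, the gene of atrial natriuretic peptide, rose by 5.42 ± 0.23 in Isl1Cre and by 3.87 ± 0.19 in Nkx2-5Cre, Nppb by 3.57 ± 0.27 and 2.49 ± 0.23, and Myh7, a myosin heavy chain gene, by 3.88 ± 0.13 and 2.00 ± 0.11. Of 7 tested small heat shock genes and partners, 5 rose and 1 fell in Isl1Cre and 3 rose and 1 fell in Nkx2-5Cre, with medians of 1.87 and 0.44: Hspb3 rose by 3.87 ± 0.35 in Isl1Cre and 2.13 ± 0.29 in Nkx2-5Cre, Hspb2 by 2.28 ± 0.14 and 0.63 ± 0.12, and Cryab by 1.87 ± 0.14 and 0.57 ± 0.12. Of 22 SRF target genes of actin and adhesion, 13 rose and 4 fell in Isl1Cre and 8 rose and 5 fell in Nkx2-5Cre, with medians of 0.79 and 0.24; Acta1, the skeletal actin gene, rose by 3.09 ± 0.16 and 1.12 ± 0.13, while Flna, filamin A, fell by 0.80 ± 0.14 in Isl1Cre and by 1.27 ± 0.11 in Nkx2-5Cre.

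The difference of the changes per day, Isl1Cre minus Nkx2-5Cre, was higher for 10 and lower for 1 of the 22 SRF targets, higher for 6 of the 13 stretch-responsive genes and higher for 5 of the 7 small heat shock genes and partners, with medians of 0.65, 1.08 and 1.29 log2 per day against 0.02 over all genes, of which 1.88% were higher and 0.694% lower. Averaged over stages, 10 of the 22 SRF targets, 6 of the 13 stretch-responsive genes and 3 of the 7 small heat shock genes and partners were lower in Isl1Cre, with medians of -0.23, -0.39 and -0.27, against 3.68% of all genes lower; Hspa8, a constitutive partner chaperone, was higher by 0.26 ± 0.05. Of the 14 tested YAP target signature genes, 3 were also lower, Igfbp3, Tgfb2 and Ccdc80, and 0 higher, with a median of -0.21. Leaving out 1 library gave 1 to 3 lower. Within cardiomyocyte-like cells 4 of 12 stretch-responsive genes rose per day, against 1.18% of all genes, Nppa by 2.35 ± 0.36, Myh7 by 1.23 ± 0.19 and Csrp3 by 0.96 ± 0.12 among them; with no filter on low values 1 of 16 rose. With the libraries of a group averaged to 1 value, the filter left 11 stretch-responsive genes, of which 9 rose in Isl1Cre (median 2.21) and none passed in Nkx2-5Cre, where the median was 1.57. These lists were drawn up with earlier results of the data known, and they share libraries with the members' tests.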

How the data were processed

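Per the labels' protocols, cells were freed with trypsin, some after sorting, and picked by mouth pipette; an oligo(dT) primer with a cell barcode and a molecular identifier of 8 bases each primed the cDNA, and 3' ends were captured. CASAVA 1.8, TopHat2 2.0.12, HTSeq and mm10 appear in the submitters' processing notes. The deposited values are CPM for each cell, as the authors scaled them.

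Values up to 20 times that of 1 count came out whole in 100% of cases (tolerance 0.1), so counts were recovered; whether they count reads or identifiers is not stated. Intervals and floors would cover counting error only. Cells with at least 2000 counts and 1000 genes were kept; no doublet caller was run. The main test was limma 3.58.1 (trended, R 4.3.3) across all genes on TMM-scaled log2(mean CPM + 1), for genes with at least 5 CPM in at least 2 libraries, with 1 mean per group, 7 residual degrees of freedom and Benjamini-Hochberg adjustment; ± is SE. On the recovered counts, summed over cells, edgeR 4.0.16 called 740 genes between lineages over all stages, against 784 by limma. Cells were clustered without the 8 members (2000 variable genes, 30 components, 15 neighbours, Leiden resolution 1.0, leidenalg 0.10.2, Python 3.11.15). The rule that names clusters was chosen after seeing the data: a class needed at least 3 markers, making up a share of 0.5 or more of its list, each at least 2-fold above the lower quartile of other clusters (10 CPM added) and present in 25% of cells or more, and at least 1 marker among the cluster's 10 leading genes by fold. A shallow cluster of 76 cells was among those named cardiomyocyte-like. Members and gene lists were chosen with earlier results of these data known. All 8 members are named; from a list, up to 4 called genes with the largest change, and Yap1, Wwtr1, Tead1, Srf and Myocd; and the 3 genes most alike by each measure. The procedure was tested on simulated data. Alternatives were edgeR, DESeq2 1.42.0, a replicate block, libraries averaged by group, other filters, pseudocounts, scaling, thinning and cluster resolutions, and leaving out each library. Same-numbered libraries of 2 groups did not deviate together: over 21 pairs of groups the correlation was -0.03 to 0.17.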

Additional observations from a re-analysis of the deposited data

Results flagged for a closer look

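The change per day differed between the lineages by a test of the difference itself for 3 members. The change per day in Isl1Cre minus that in Nkx2-5Cre was 1.47 log2 for Hspb7, 0.74 for Ankrd1 and 0.66 for Hspb1. Ankrd1 was not called by edgeR (0.47, adjusted p = 0.187) or DESeq2 (0.44, adjusted p = 0.241), and both tools called 2 members. No group has the 4 libraries that a test for a single deviating library needs.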

How the results depend on the processing

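The called member changes, 40 over 14 comparisons, had 934 values under alternatives, of which 860 were called in the same direction, 74 were not called and 0 were reversed; 14 of the 40 were called under every alternative run, and 16 of the 74 losses came with the libraries of a group averaged to 1 value, which leaves fewer residual degrees of freedom. Of the 12 changes named without a call, 23 of 274 alternative values were called and 0 reversed. Counts of members called that moved by over 1.5 times follow; unless said otherwise the cause was not tested. With libraries averaged, the counts were 0 between lineages over all stages (3 otherwise), 3 for change per day in Isl1Cre (6), 0 in Nkx2-5Cre (6), 0 for the difference of these (3) and 0 between lineages within cardiomyocyte-like cells (1). With no filter on low values, which adds genes to the adjustment, they were 1 for the difference of changes per day (3), and 0 for E9.25 minus E8.25 in Nkx2-5Cre (1) and for both comparisons within cardiomyocyte-like cells (1 each). Thinned to 5000 counts, they were 1 between lineages at E8.25 (2), 3 for E8.25 minus E7.75 in Nkx2-5Cre (6) and 1 for E9.25 minus E8.25 in Isl1Cre (2). DESeq2 gave 4 between lineages at E8.25 (2) and 2 at E9.25 (0), a pseudocount of 10 CPM gave 1 at E9.25 (0), and edgeR gave 0 between lineages within cardiomyocyte-like cells (1). Leaving out 1 library gave 1 to 2 between lineages at E8.25, 0 to 1 at E9.25, 1 to 5 for the difference of changes per day and 0 to 1 for E9.25 minus E8.25 in Nkx2-5Cre. Without Isl1Cre E9.25, its only library of that stage, comparisons at E9.25 give no value, and the averaged fit gives none for single stages or steps. With a replicate block, 4 members were called between lineages over all stages, Ankrd1 (-0.29, adjusted p = 0.0291) being added, and 3 for E9.25 minus E8.25 in Isl1Cre, with Xirp1 added (1.19, adjusted p = 0.043); it changed no other count of members called. Depth limits the shares of cells with a count: 50 kept cells were too shallow to thin.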
